A study of Mus musculus with 4 samples.

Results

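Mras, a membrane-bound small GTPase of the Ras family, was followed with 8 of its relatives, Hras, Nras, Rras, Rras2, Rap1a, Rap1b, Rala and Ralb, in mouse embryonic stem (ES) cell clones that carry or lack Klf5, a transcription factor with zinc fingers. Members were the probe sets whose platform gene symbol was one of these 9 names, and 8 of the 9 genes had at least 1 probe set, of 18194 genes named on the array. These 8 genes held 18 probe sets. Hras had no probe set under its symbol in the annotation used and was not analysed. Mras was taken up because it read far lower in the Klf5 knockout (KO) clones, so its values are given as a description with no test, whereas the relatives were taken up by family, with the question of whether its fall was matched among them.

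The study compared 2 wild-type (WT) ES cell clones with 2 clones carrying a Klf5 KO, all in ES medium with 15% fetal bovine serum and LIF, a cytokine added to block differentiation. Total RNA of each clone was hybridised to 1 Affymetrix array, and the submitters searched for genes that were lower without Klf5. The parental line, the way Klf5 was disrupted and any feeder layer are not stated in the labels, and each group rests on 2 clones. With 2 arrays against 2, an exact permutation test cannot give a two-sided p below 0.33, so tests come from limma fitted over all probe sets. Pairs of values follow the order clone 1, clone 2.

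Ras-family GTPases are switches that signal when bound to GTP and are silent when bound to GDP. Exchange factors load them with GTP, GTPase-activating proteins make them hydrolyse it, and lipids attached to their tails hold them on membranes. Nras and Hras are classical Ras proteins that recruit Raf kinases and feed the ERK cascade, which in mouse ES cells promotes the exit from self-renewal. Mras belongs with Rras and Rras2 to the R-Ras group and forms a complex with the scaffold Shoc2 and the phosphatase PP1 that removes an inhibitory phosphate from Raf. Rap1a and Rap1b act on cell adhesion through integrins and cadherins, and Rala and Ralb on vesicle delivery through the exocyst.

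Because the gene removed in the KO clones encodes a factor of a family known to bind GC-rich and CACCC-type DNA, the start regions of Mras, which read lower, of Rras2, from the same GTPase group, and of Rap1b, which had the highest difference among the relatives, are shown here. Each runs from 250 bases before to 50 bases after a RefSeq start (GRCm38.p6), 5′ to 3′ on the strand of the gene. The windows are chr9:99436663-99436962 (minus strand) for Mras, chr7:114117732-114118031 (minus strand) for Rras2 and chr10:117845925-117846224 (minus strand) for Rap1b. Capitals mark GGGCGG and CACCC on either strand (CCGCCC and GGGTG on the other), and overlapping matches are merged.
Mras: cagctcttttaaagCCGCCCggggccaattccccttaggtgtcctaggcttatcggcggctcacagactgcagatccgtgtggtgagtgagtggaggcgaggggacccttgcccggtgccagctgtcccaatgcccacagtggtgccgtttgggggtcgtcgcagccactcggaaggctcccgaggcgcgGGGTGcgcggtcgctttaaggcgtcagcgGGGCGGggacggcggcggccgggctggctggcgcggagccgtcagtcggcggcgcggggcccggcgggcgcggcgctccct
Rras2: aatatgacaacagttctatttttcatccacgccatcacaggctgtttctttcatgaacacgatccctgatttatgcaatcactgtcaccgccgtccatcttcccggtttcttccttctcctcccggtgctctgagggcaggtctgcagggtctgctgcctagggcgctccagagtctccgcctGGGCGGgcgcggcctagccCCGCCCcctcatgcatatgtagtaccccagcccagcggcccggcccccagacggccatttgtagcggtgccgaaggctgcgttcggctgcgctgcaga
Rap1b: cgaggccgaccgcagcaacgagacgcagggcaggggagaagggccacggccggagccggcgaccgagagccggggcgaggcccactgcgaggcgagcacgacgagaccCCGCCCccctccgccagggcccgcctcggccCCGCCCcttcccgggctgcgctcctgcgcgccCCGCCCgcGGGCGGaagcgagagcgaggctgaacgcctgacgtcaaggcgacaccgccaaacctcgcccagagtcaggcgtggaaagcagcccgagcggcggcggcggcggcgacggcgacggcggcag

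The Mras window held 2 GGGCGG matches, the nearer starting 31 bases before the start, and 1 CACCC match. Rras2 held 2 GGGCGG and 0 CACCC matches, and Rap1b held 4 and 0. Across 32851 RefSeq windows of this length, 35.7% held GGGCGG and 57.5% held CACCC. Start regions of 8 of the 9 member genes, Hras included, were matched in the table, in 10 windows, of which 7 held GGGCGG and 6 held CACCC. Of the windows shown, GGGCGG was in those of Mras (log2 difference -2.44), Rras2 (-0.050) and Rap1b (0.64), and CACCC in that of Mras. CACCC also lay in windows of Nras, Rras, Rala and Ralb, which are not shown. A match is a description of the window and not a binding site, and its part in these differences was not tested.

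The arrays separated as labelled on the brightest Klf5 probe set. It read 2398 and 1782 in the WT clones against 34.8 and 49.9 in the KO clones (log2 difference -5.17 ± 0.22, SE; limma, adjusted p = 3.3e-05). A dimmer Klf5 probe set (1451739_at) stood at 102 and 88.6 in WT against 82.6 and 61.0 in KO and did not pass (-0.35; limma, adjusted p = 0.36), and the third was removed as dim. Deposited array medians ran from 18.6 to 28.5, with WT clone 1 brightest, so the arrays were quantile normalized before comparison. The correlation over probe sets was 0.986 between WT clones, 0.984 between KO clones and 0.961 to 0.973 between groups. All 14 ES cell markers measured (Pou5f1, Sox2 and Nanog among them) read above the intensity of 13.05, at which dim probe sets were removed, on every array. Of them 0 passed the test (limma, 2 at an unadjusted p under 0.05), and their median log2 difference was -0.13. Over all 27022 probe sets, 3.69% passed and 5508 were at an unadjusted limma p under 0.05. Of 22 measured fibroblast and feeder cell markers, 18 rose, 0 fell and 4 did not pass, with a median of 1.79. Over all 13023 genes, 2.94% rose and 1.34% fell, with a median of -0.024. The summed intensity of the 22 was 6362 to 8203 in WT and 20553 to 21379 in KO clones. In both WT clones 3 of these 22 markers (Dcn, Col6a1 and Prrx1) read under 13.05. They were among the 18 that rose and passed the filter through the KO arrays. The filter removed 2 further listed markers as dim. Genes described below were measured in those same arrays, and the part of this marker difference in their values was not tested. In bulk RNA, fewer cells of a type and less RNA per cell cannot be told apart.

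Mras read several-fold lower in both KO clones on both of its probe sets. On the brighter one (1449590_a_at) the normalized intensity was 244 and 195 in the WT clones and 27.5 and 26.8 in the KO clones. The KO clones lay close together and far below both WT clones, and the WT clones differed more from each other than the KO clones did. On the log2(intensity + 16) scale the difference was -2.44 ± 0.19 (moderated SE, n = 2 arrays per group), a 5.42-fold lower value. Without the added 16, the ratio of a WT to a KO clone ran from 7.06 to 9.09 over the 4 pairings, since the pseudocount shrinks the change of a gene that becomes dim. With a pseudocount of 64 in place of 16 the difference was -1.63, and with 1 it was -2.96.

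The other Mras probe set (1453419_at) was dimmer and gave the same order of groups. It read 99.3 and 106 in the WT clones against 8.14 and 25.3 in the KO clones. Here the WT clones lay close together and the KO clones apart, KO clone 1 falling below the intensity of 13.05. Its log2 difference was -1.91 ± 0.26 (moderated SE, n = 2 per group). KO clone 2 was 3.93-fold below WT clone 1 and 4.19-fold below WT clone 2, and no fold is given for KO clone 1, which was too dim. On the brighter probe set the difference was -2.18 without WT clone 1 and -2.61 without WT clone 2. In the deposited values, before any normalization, the brighter probe set stood at 344 and 162 in WT and 26.2 and 26.2 in KO, so the groups were apart before normalization too.

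**Figure D1:**
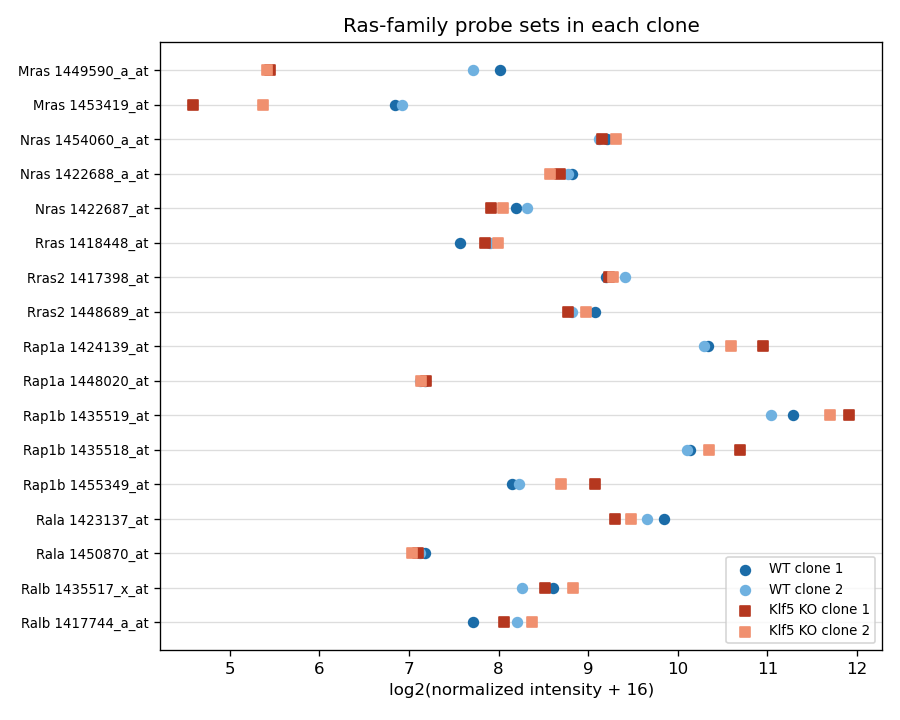
Each row is 1 of the 17 Ras-family probe sets kept after the filter on dim values, and each point is 1 array (circles WT, squares Klf5 KO) on the log2(normalized intensity + 16) scale. Both Mras rows show the KO squares well to the left of the WT circles, while in the other rows the 4 points lie within about a unit of each other. Levels are comparable within a row and not between rows.

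No measured relative matched the fall of Mras. Of 15 kept probe sets of the 7 measured relatives, 0 passed the test (limma, adjusted p under 0.05), where 3.69% of all 27022 probe sets passed. At an unadjusted limma p under 0.05 there were 3, and 5508 among all 27022. These background figures are printed as background only, since the choice of genes started from this comparison. Log2 differences of the 15 ran from -0.37 to 0.70, and no 95% confidence interval reached lower than -0.79. By the representative probe set of each gene, 2 relatives were below 0 and 5 above, with a median of 0.19 beside -0.024 over all 13023 genes. The groups did not overlap for 4 probe sets lower and 4 higher in KO, where 28.4% and 23.9% of all probe sets were so separated, and they overlapped for 7.

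**Figure D2:**
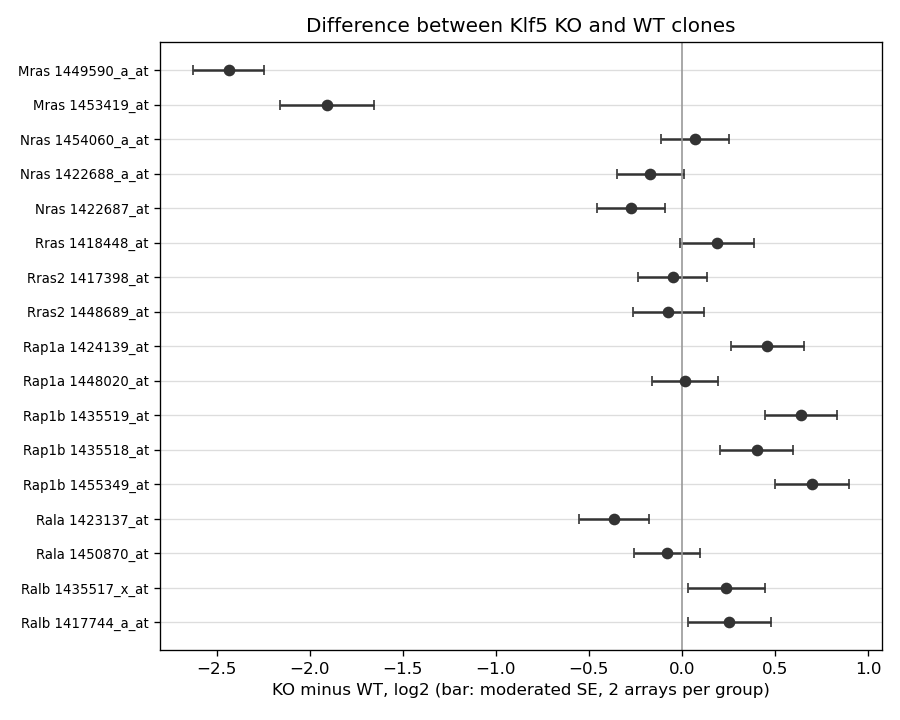
Points give the KO minus WT difference in log2(normalized intensity + 16) for each kept Ras-family probe set, and bars give the moderated standard error from 2 arrays per group. The Mras points stand at -2.44 and -1.91, and the other points lie between -0.37 and 0.70.

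The members of the R-Ras group, to which Mras belongs, showed no such difference. Rras, which regulates integrin activity and is prominent in vascular cells, read 173 and 224 in the WT clones and 215 and 239 in the KO clones. The groups overlapped, and the log2 difference was 0.19 ± 0.20 (95% interval -0.26 to 0.63; limma, adjusted p = 0.63). The difference was 0.017 without WT clone 1 and 0.36 without WT clone 2. It turned to -0.080 in the values as deposited and -0.042 with each array centred on its median, settings in which the median of all probe sets was itself at -0.19 and -0.16. Rras2, also called TC21, read 571 and 663 in WT versus 585 and 603 in KO on its brighter probe set, with the KO clones between the WT clones. Its log2 difference was -0.050 ± 0.18 (-0.47 to 0.36; limma, adjusted p = 0.91), and 0.053 without WT clone 2. The other Rras2 probe set stood at 522 and 436 in the WT and 421 and 486 in the KO clones, again overlapping, at -0.074 ± 0.19 (-0.51 to 0.36; limma, adjusted p = 0.86). These intervals lie above the -1.91 and -2.44 measured for Mras. Since Mras was taken up for its fall, that gap is a description and not a test.

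Nras, the classical Ras protein measured here, varied in sign between its probe sets. The brightest read 575 and 541 in the WT clones and 554 and 621 in the KO clones, with overlapping groups and a log2 difference of 0.071 ± 0.18 (95% interval -0.34 to 0.48; limma, adjusted p = 0.86). It turned to -0.28 in the deposited values, -0.24 with median centring, -0.12 as a mean of its probe sets and -0.0099 without KO clone 2. The remaining ones read lower in KO than in WT without overlap, by a small margin. One (1422688_a_at) stood at 437 and 424 in WT against 397 and 365 in KO (log2 difference -0.17 ± 0.18), and the other (1422687_at) at 277 and 304 against 225 and 249.6 (-0.27 ± 0.18; limma, adjusted p = 0.43). No Nras probe set passed, and the lowest bound of their intervals was -0.68.

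The Rap1 GTPases read higher in KO clones on most probe sets, without passing the test. Rap1b, which controls integrin-based adhesion, read 2490 and 2086 in the WT clones and 3841 and 3308 in the KO clones on its brightest probe set. Both KO clones lay above both WT clones, and the log2 difference was 0.64 ± 0.19 (95% interval 0.20 to 1.08; limma, adjusted p = 0.11). Its other probe sets showed the same order. One (1455349_at) read 268 and 283 in WT against 525 and 398 in KO (0.70 ± 0.20; limma, adjusted p = 0.095), and the other (1435518_at) 1109 and 1082 against 1643 and 1284 (0.40 ± 0.19; limma, adjusted p = 0.29). KO clone 1 was the highest array on all of them. The brightest passed with a pseudocount of 64 (limma, adjusted p = 0.024) and with a variance prior that follows the mean level (0.014), and did not pass in the other settings tried, in which adjusted p ran up to 0.79. The fibroblast and feeder cell markers were also higher in the KO arrays (summed intensity 20553 to 21379 against 6362 to 8203), and their part in the Rap1b values was not tested.

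Rap1a, the close paralog of Rap1b, differed between its probe sets. The brighter (1424139_at) read 1275 and 1235 in the WT clones against 1967 and 1525 in the KO clones, without overlap, at 0.46 ± 0.20 (95% interval 0.015 to 0.91; limma, adjusted p = 0.23). The dimmer (1448020_at) read 129 and 123 in WT versus 131 and 125 in KO, overlapping, at 0.017 ± 0.18 (-0.38 to 0.42; limma, adjusted p = 0.97). The brighter had 0.27 without KO clone 1 and 0.64 without KO clone 2. Which transcript regions these probe sets cover is not stated in the labels. KO clone 1 was again the highest array on both.

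Neither of the Ral GTPases passed the test, and the 95% intervals of both included 0. Rala, which drives exocyst-dependent secretion, read 907 and 790 in the WT clones against 613 and 697 in the KO clones on its brightest probe set. The KO clones lay below the WT clones, and the log2 difference was -0.37 ± 0.19 (95% interval -0.79 to 0.058; limma, adjusted p = 0.31), the lowest among the relatives. A dimmer Rala probe set (1450870_at) kept the order with a smaller difference, from 129 and 123 in WT to 121 and 115 in KO (-0.081 ± 0.18; limma, adjusted p = 0.84). The remaining one read 0.950 to 2.25 on the 4 arrays and was removed by the filter.

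Ralb, the paralog of Rala, had overlapping groups on both probe sets. That without the suffix _x_at read 194 and 280 in the WT clones and 252 and 315 in the KO clones, a log2 difference of 0.26 ± 0.22 (95% interval -0.25 to 0.76; limma, adjusted p = 0.56). The gap between the WT clones was wider than the difference between the groups. Its other probe set, whose suffix _x_at marks probes that can also match other transcripts, read 375 and 292 in WT versus 352 and 439 in KO (0.24 ± 0.21; limma, adjusted p = 0.56). In the deposited values the first gave -0.022, and leaving out each array in turn gave 0.011 (WT clone 1) to 0.50 (WT clone 2).

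Relative to all probe sets, these readings depended little on the scaling for Mras and more for its relatives. With the median of all probe sets subtracted, Mras stood at -2.41 after quantile normalization and -2.39 in the deposited values. Rap1b stood at 0.66 and 0.59, Rap1a at 0.48 and 0.34, and Rala at -0.34 and -0.52. Rras kept its sign (0.21 and 0.11), as did Ralb (0.28 and 0.17) and Rras2 (-0.028 and -0.21), while Nras changed it (0.094 and -0.084).

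The genes nearest to Mras in pattern were others that read lower in KO clones. Likeness was the Euclidean distance between the 4 log2 values of a gene and of Mras, each centred on its own mean, over 4 arrays and 13023 genes. The 5 nearest were Stmn2, a microtubule regulator (distance 0.36), Tgm1, a transglutaminase of keratinocytes (0.45), the uncharacterised transcript 1700097N02Rik (0.498), Gpx2, a glutathione peroxidase of epithelia (0.53), and Bcam, a laminin receptor (0.58). Stmn2 read 3507 and 2968 in the WT clones against 761 and 736 in the KO clones. Gpx2 read 2.29 and 10.7 in the KO clones, both under the intensity of 13.05, so its distance rests in part on dim values. Among the relatives, the nearest was Rala at a distance of 2.08, with 1791 genes nearer to Mras than it, and the farthest was Rap1b at 3.08. With 4 arrays in 2 groups, such a distance mostly reads the size of the difference between groups.

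**Figure D3:**
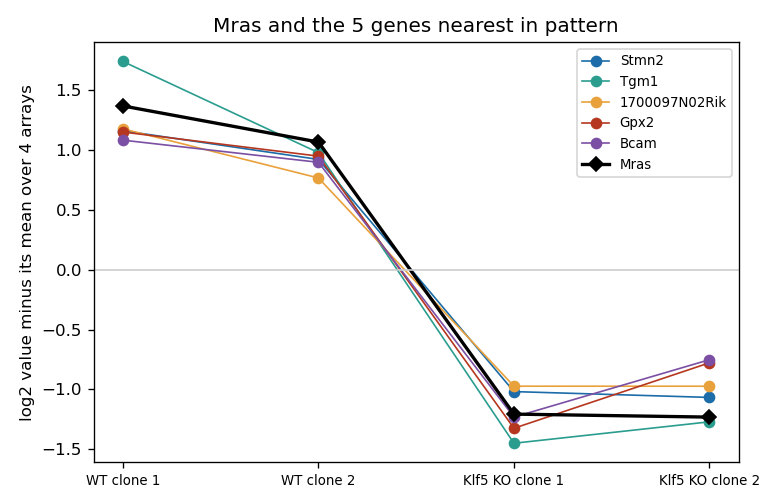
Each line joins the log2(normalized intensity + 16) values of 1 gene over the 4 arrays after its own mean was subtracted, with Mras in black and the 5 nearest genes in colour. All 6 lines stand between 0.77 and 1.74 in WT clones and between -1.45 and -0.75 in KO clones. The lines join arrays for legibility and show no order in time.

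Other Ras-type GTPases, and genes that act on or below Ras GTPases, were measured in 5 lists. Of their 88 genes, 1 fell, 0 rose and 87 did not pass (limma), where 1.34% of all genes fell and 2.94% rose. The count of falls lay near the share over all genes. At an unadjusted limma p under 0.05 there were 13 of the 88 genes, each by 1 probe set. Among all 27022 probe sets there were 5508, a count by probe set and not by gene, so the shares are not in like units. The median log2 difference of the 88 was 0.016. Fntb, the beta subunit of the farnesyltransferase that attaches a lipid tail to classical Ras proteins such as Nras, was the gene that fell. It read 510 and 315 in the WT clones against 131 and 168 in the KO clones. Both KO clones lay below both WT clones, with a wide gap between the WT clones. The log2 difference was -1.34 ± 0.25, a 2.53-fold lower value (95% interval -1.90 to -0.77; limma, adjusted p = 0.023). Fntb no longer passed without WT clone 1 (-0.98, adjusted p = 0.075), KO clone 1 (-1.19, adjusted p = 0.18) or KO clone 2 (-1.51, adjusted p = 0.075), with a pseudocount of 1 (adjusted p = 0.13) or with no filter (adjusted p = 0.13).

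The other 10 measured genes of lipid processing and trafficking did not pass, and the list's median was -0.018. Lypla1, a thioesterase that removes palmitate from proteins, read 1342 and 1036 in WT versus 2239 and 1918 in KO, at 0.80 ± 0.20 (limma, adjusted p = 0.068). A probe set of Lypla1 with the suffix _s_at had 0.56 and a dim one -0.22. The mean of its probe sets gave 0.38, and it passed in 4 of 13 alternative settings.

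Of 18 other Ras-type GTPases measured, 0 passed (limma; 4 at an unadjusted p under 0.05), 14 were above 0 and 4 below, and the median was 0.21. Rit1, a GTPase related to Ras without a lipid tail, read 102 and 119 in the WT clones and 213 and 173 in the KO clones (0.72 ± 0.19; limma, adjusted p = 0.083). Rit1 passed in 3 of 13 alternative settings (limma, adjusted p from 0.033 to 0.042), and another, dim probe set of it gave 0.17 with overlapping groups. Rasd2, a GTPase best known from the striatum, read 35.3 and 35.2 in WT against 23.0 and 16.7 in KO (-0.52 ± 0.19; limma, adjusted p = 0.16). Eras, a Ras protein expressed in ES cells, was picked with its values in view and read 1925 and 1992 in WT versus 1511 and 1239 in KO (-0.51 ± 0.19; limma, adjusted p = 0.18), on a probe set with the suffix _x_at.

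Among exchange factors, 0 of 16 passed (limma; 3 at an unadjusted p under 0.05), with 8 above and 8 below 0 and a median of -0.021. Sos1, which loads Ras with GTP downstream of growth factor receptors, read 330 and 258 in the WT clones against 164 and 201 in the KO clones (-0.64 ± 0.20; limma, adjusted p = 0.13), and its other 3 probe sets had 0.041, -0.28 and -0.51. With median centring Sos1 passed (-0.88; limma, adjusted p = 0.021). Rapgef5, an exchange factor for Rap proteins, had -0.46 and -0.52 on its probe sets. Among GTPase-activating proteins, 0 of 17 passed (limma; 0 at an unadjusted p under 0.05), and the median was -0.059. Rasa4 had -0.46 on one probe set and 0.60 on another, and Sipa1l2, which acts on Rap, had -0.40.

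Of 26 effectors measured, 0 passed (limma; 4 at an unadjusted p under 0.05), with 14 above and 12 below 0 and a median of 0.010. Plce1, a phospholipase C that binds Ras and Rap, read 31.0 and 29.3 in WT clones against 1.53 and 19.9 in the KO clones (-0.88 ± 0.30; limma, adjusted p = 0.15), and its values were dim. Leaving out KO clone 1 gave Plce1 -0.37, and leaving out KO clone 2 gave -1.41, where it passed (limma, adjusted p = 0.039), as it did with median centring (0.021). Tiam1, an exchange factor for Rac that binds Ras, read 246 and 220 in WT against 124 and 150 in KO (-0.71 ± 0.19; limma, adjusted p = 0.081). It passed in 5 of 13 alternative settings, namely a pseudocount of 64 (limma, adjusted p = 0.028), the filter at the 60th percentile (0.040), median centring (0.013), a variance trend (0.040) and the mean of probe sets (0.031). No other Tiam1 probe set was kept, so in the last of these its difference stayed at -0.71 and only the fit around it changed. Shoc2, the scaffold of the Mras complex, was named for that role after its values were seen: it read 499 and 529 in WT against 642 and 639 in KO (0.31 ± 0.18; 95% interval -0.092 to 0.71; limma, adjusted p = 0.36). The catalytic subunits of PP1, Ppp1ca, Ppp1cb and Ppp1cc, likewise named for their role, had 0.12, 0.31 and -0.051. The lowest bound of the 95% intervals of Shoc2 and these subunits was -0.45. Mras was taken up for its fall, and 1.34% of all 13023 genes passed as lower. That its partners did not fall as far is therefore a description and no result about them.

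**Figure D4:**
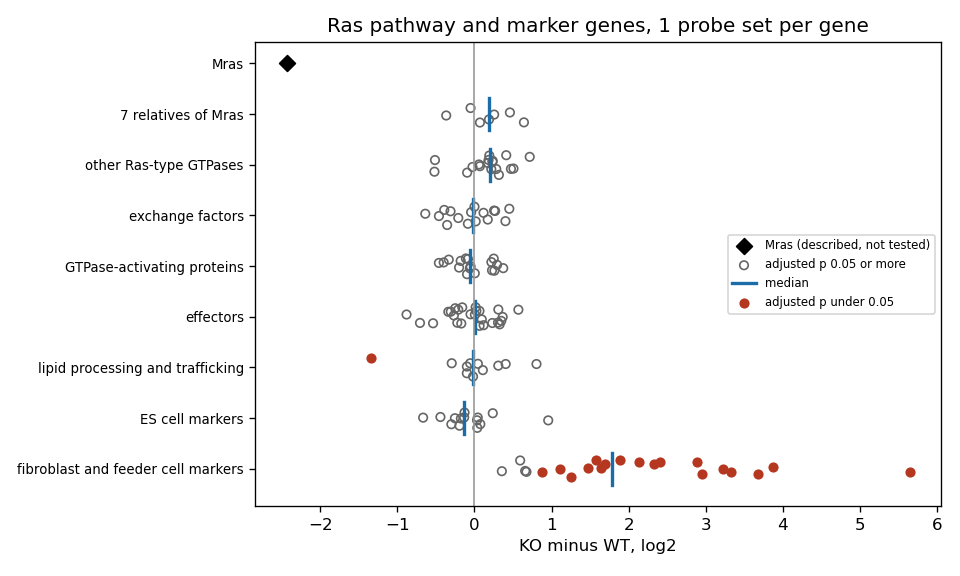
Each point is the KO minus WT difference in log2(normalized intensity + 16) of 1 gene, by 1 probe set, with genes grouped by list, filled where limma's adjusted p was under 0.05 and open otherwise, and bars at each list's median. Mras stands at -2.44, the 7 relatives have a median of 0.19, Fntb at -1.34 is the filled point among the pathway lists, and 18 of 22 fibroblast and feeder cell markers are filled.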

How the data were processed

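The values deposited by the authors are linear intensities, 1 for each of 45101 probe sets (64 of them controls) on each array. How the authors summarised, background-corrected or scaled the probes is not stated in the labels. From these values, the arrays were quantile normalized (limma 3.58.1, R 4.3.3), log2(intensity + 16) was taken, control rows and probe sets with a mean below the 40th percentile (intensity 13.05) were removed, and KO was compared with WT by limma over the remaining 27022, with Benjamini-Hochberg adjustment and 0.05 as the threshold. The number of arrays limits the precision. Whether the clones were cultured in parallel is not stated, so p-values refer to the spread between these samples. Limma also draws the variance of each probe set towards a value estimated over all of them. That shared value had 6.87 degrees of freedom, against 2 from the arrays. SEs and p-values thus rest only in part on the spread of the probe set itself.

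Of all rows, 34958 had 1 gene symbol, 932 several and 9160 non-control rows none. Gene IDs of 34754 matched the RefSeq gene table (GRCm38.p6), which changed 0 symbols. A gene was represented by its brightest probe set, one with the suffix _x_at where there was no other. Named were Klf5, all members, up to 4 genes per pathway list (of those that passed, the 2 largest in each direction, topped up by size to 2) and the 5 genes nearest to Mras. Members and lists were chosen with earlier results of these data known. The fit was tested on simulated data. Alternatives changed the pseudocount, filter, normalization, variance prior, clone block, arrays and probe set rule.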

Additional observations from a re-analysis of the deposited data

How the results depend on the processing

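Mras kept its direction under all 13 alternatives. Its log2 difference was -2.96 with a pseudocount of 1, -1.63 with 64, -2.17 as the mean of its probe sets, and -2.61 to -2.18 with each array left out in turn. The relatives that changed sign did so as follows, none of them past the threshold in either direction: in the deposited values Nras (-0.28), Rras (-0.080) and Ralb (-0.022), with median centring Nras (-0.24) and Rras (-0.042), with the mean of probe sets Nras (-0.12), and with arrays left out Nras (-0.0099 to 0.15) and Rras2 (-0.16 to 0.053). Over all probe sets the median was -0.19 in the deposited values and -0.16 with median centring, against -0.022 after quantile normalization. Rap1b passed with a pseudocount of 64 (0.63, adjusted p = 0.024) and with a variance trend (0.64, adjusted p = 0.014), so that 1 relative passed in each of these settings and 0 in the other 11.

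The count over all probe sets (996) was 189 with a pseudocount of 1, 2060 with 64, 190 with no filter, 332 in the deposited values, 2060 with median centring, 1955 with a variance trend and 203 to 653 with each array left out. The pathway genes called (1) numbered 0 with a pseudocount of 1, 4 with 64, 0 with no filter, 4 with the stricter filter, 6 with median centring, 4 with a variance trend, 2 with the mean of probe sets and 0 to 1 with each array left out. Rasa4 reversed to 0.069 as the mean of its probe sets. The causes were not tested. The clones share only a number: deviations of same-numbered clones correlated at 0.055, and with the clone number as a block 1390 probe sets and 2 pathway genes passed (Fntb and Lypla1, the latter with adjusted p = 0.041), and no call on a relative of Mras changed.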
